A study of Mus musculus with 72 samples.

Results

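The comparison described here is the miRNA content of the liver in mice that received 4 Gy of whole-body X-rays against that of sham-irradiated mice (0 Gy). Its members are the 6 liver miRNA arrays labelled 0 Gy (mice 1, 11 and 21) and 4 Gy (mice 4, 14 and 24), out of 72 arrays in all, and all 1881 mouse miRNAs that the array probes. Both groups were female C57BL/6 J mice, 6 to 8 weeks old, with no transgene or deleted allele named, and their livers were taken 48 h after exposure. The 4 Gy dose was given once, at 1.05 Gy/min, and the 0 Gy mice were sham-irradiated. Each array held the RNA of 1 mouse, so n = 3 in each group. The arrays of the other doses (1, 2, 8 and 12 Gy), of lung miRNA and of liver mRNA are used only where they bear on this comparison.

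A miRNA is a short RNA that guides a silencing complex to messenger RNAs, mostly through base pairing of its seed, which is bases 2 to 8 counted from the 5′ end. In liver, miR-122 is the hallmark of hepatocytes. Resident and passing blood cells bring miRNAs of their own, such as miR-142 and miR-223 in leukocytes and miR-451a in red cells. The miR-34a gene is a direct transcriptional target of p53, the transcription factor that DNA damage activates, and its product restrains cell cycle and survival genes.

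Only a small part of the array gave signal, as is usual for a single tissue. Between 7.92% and 10.4% of the spots were well above background on the 0 Gy arrays and between 8.61% and 9.14% on the 4 Gy arrays. A probe (4415 in all, 7 to 30 spots each) was counted as above background on an array when at least 0.5 of its spots were, which held for 261 to 312 probes at 0 Gy and 286 to 347 at 4 Gy. The test took 390 probes of 223 miRNAs that were above background on at least 1 of the 18 liver arrays, and the remaining miRNAs give no value here. Of the tested probes, 261 were above background on all 6 arrays of the comparison, 42 on none of them. The levels below are log2 normalized intensities, in which a step of 1 is a doubling, and differences compare a probe with itself between mice. Ranks of brightness and summed levels of lists describe signal, not the amount of 1 miRNA against another. No spot was saturated. The 0 Gy arrays shared a slide and the 4 Gy arrays shared another, so slide and dose could be separated only through the other doses. Each group was 3 separate mice. The p-values rest on the spread between mice within the dose groups, pooled over all 18 liver arrays and steadied by limma across probes.

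The labelled tissue matched its markers. miR-122-5p was the second brightest miRNA, at 16.87, 16.87 and 16.84 in the 0 Gy mice and 16.85, 16.95 and 16.86 in the 4 Gy mice, and the muscle miRNAs miR-1a-3p and miR-133a-3p were not above background on any of these 6 arrays. Among the arrays that only helped to estimate the spread, mouse 23 at 2 Gy stood apart at 10.64 for miR-1a-3p, with mouse 13 at 7.35. Without these 2 arrays the same 2 probes were called at 4 Gy, and 4 rather than 3 probes had an adjusted p below 0.05.

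Some of the miRNAs described below are shown with their mature sequences, as listed by RefSeq (build GRCm38.p6), where 194 of the 223 tested miRNAs had an entry. They are written 5′ to 3′ in lower case, and capitals mark the seed.
miR-34a-5p: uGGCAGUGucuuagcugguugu
miR-142a-3p: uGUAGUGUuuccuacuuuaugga
miR-142a-5p: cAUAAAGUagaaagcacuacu
miR-223-3p: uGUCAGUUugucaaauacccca
miR-34a-5p is the miRNA that rose. The other 3 sequences are leukocyte miRNAs whose 4 Gy mice all lay below the 0 Gy mice. Of these, miR-142a-5p and miR-223-3p did not pass the adjusted test (adjusted p 0.99 and 0.622). miR-34a-5p lies at chr4:150068473-150068494 on the plus strand, and the gene table holds no other gene across the Mir34a hairpin. Both miR-142a arms come from the Mir142 hairpin, at chr11:87756864-87756927 on the plus strand. miR-223-3p is at chrX:96242884-96242905, inside the long non-coding RNA F630028O10Rik.

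The next set shows that several miRNAs with lower values at 4 Gy share a seed. Bases GUGCAAA are the seed of the miR-19 pair and AAAGUGC that of the miR-17 seed family.
miR-19a-3p: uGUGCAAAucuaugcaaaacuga
miR-19b-3p: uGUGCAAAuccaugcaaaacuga
miR-20a-5p: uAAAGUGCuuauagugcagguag
miR-20b-5p: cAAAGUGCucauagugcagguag
miR-93-5p: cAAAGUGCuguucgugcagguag
miR-106b-5p: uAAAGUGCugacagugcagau
miR-19a, miR-20a and a copy of miR-19b lie within a single cluster on chromosome 14 (hairpins from 115044000 to 115044391), miR-20b and the other copy of miR-19b lie on chromosome X, and the hairpins of miR-93 and miR-106b are inside the gene Mcm7 on chromosome 5. The miR-29 family, with higher values at 4 Gy, shares the seed AGCACCA.
miR-29a-3p: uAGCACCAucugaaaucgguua
miR-29b-3p: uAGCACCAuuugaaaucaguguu
miR-29c-3p: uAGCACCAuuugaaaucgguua
miR-29c and a copy of miR-29b lie together on chromosome 1, inside the long non-coding RNA A330023F24Rik, and miR-29a lies with the other copy of miR-29b on chromosome 6. A last set holds the miRNAs that separated 4 Gy from the higher doses.
miR-3102-5p: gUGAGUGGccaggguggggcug
miR-5126: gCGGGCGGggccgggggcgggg
miR-211-3p: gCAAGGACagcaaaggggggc
These are rich in G and C, which make up 72.7% of miR-3102-5p, 100% of miR-5126 and 66.7% of miR-211-3p. miR-3960, which belongs with them by its values, had no entry in the sequence table.

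miR-34a-5p was the miRNA called at 4 Gy. Its brighter probe read 8.69, 8.92 and 9.19 in the 0 Gy mice and 10.02, 10.15 and 10.18 in the 4 Gy mice. Its second probe read 7.55, 7.74 and 8.08 against 9.03, 9.13 and 9.18. On both probes every 4 Gy mouse lay above every 0 Gy mouse, and the 4 Gy mice lay closer to each other (SD 0.08 on the brighter probe) than the 0 Gy mice did (SD 0.25). The rise was 1.18 ± 0.18 (SE) in log2 on the brighter probe, or 2.27-fold, with a limma adjusted p of 0.00119. On the second probe it was 1.32 ± 0.19, or 2.50-fold, with an adjusted p of 0.00117. A probe was called when it changed more than 2-fold in either direction and its Benjamini-Hochberg adjusted p was below 0.05. By that rule 2 of 390 probes were called (0.513%), both of miR-34a-5p, and none was called lower. At an unadjusted p below 0.05 there were 24 probes, 8 higher and 16 lower. The other arm of the hairpin, miR-34a-3p, and the relatives miR-34b and miR-34c were not above background on any liver array. The call on miR-34a-5p was kept without each of the 6 mice in turn, and with slide as a term its rise was 1.50. It was lost under 75th percentile scaling of normexp values (rise 1.44, adjusted p 0.993) and under the processed signal scaled over all probes (rise 1.84).

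**Figure D1:**
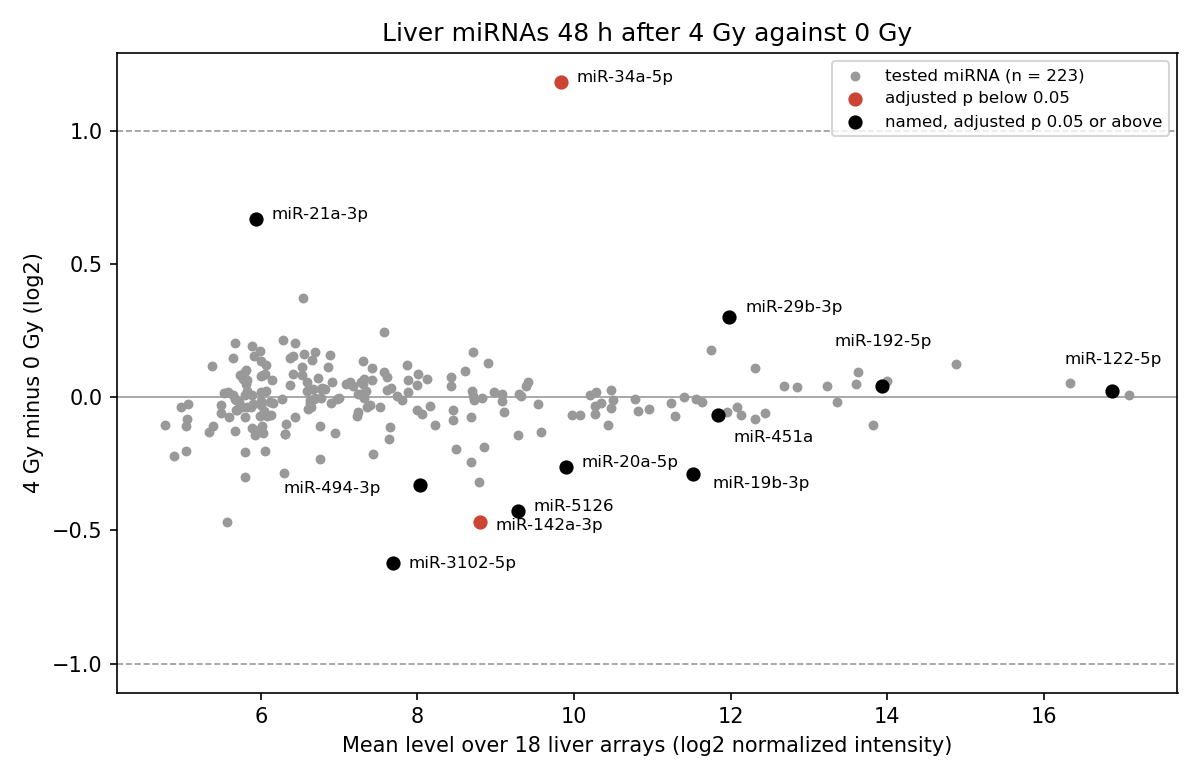
Each point is 1 of the 223 tested miRNAs, given by its brightest probe, with the mean level over 18 liver arrays (log2 normalized intensity) across and the difference of 4 Gy minus 0 Gy (log2) upward. Dashed lines mark differences of 1 and -1, miR-34a-5p at 1.18 is the single point beyond them, and red points have an adjusted p below 0.05.

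miR-142a-3p, a miRNA made across the blood cell lineages, was lower at 4 Gy. Its brighter probe read 9.37, 9.17 and 9.32 in the 0 Gy mice and 8.82, 8.84 and 8.79 in the 4 Gy mice, with no overlap. The fall was 0.47 ± 0.10 (SE, decreased by 0.47 in log2), to 0.723 of the control intensity, with an adjusted p of 0.030. It was thus past the threshold on p but under that on size, and with miR-34a-5p it made 3 of 390 probes at an adjusted p below 0.05 (0.769%). The second probe read 8.34, 8.15 and 8.28 against 7.73, 7.85 and 7.79, a difference of -0.46 with an adjusted p of 0.059. Leaving out 1 mouse gave differences from -0.53 to -0.42 and adjusted p-values above 0.05 for 5 of the 6 mice (all but mouse 11), and with slide as a term the difference was -0.46 with an adjusted p of 0.226.

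**Figure D2:**
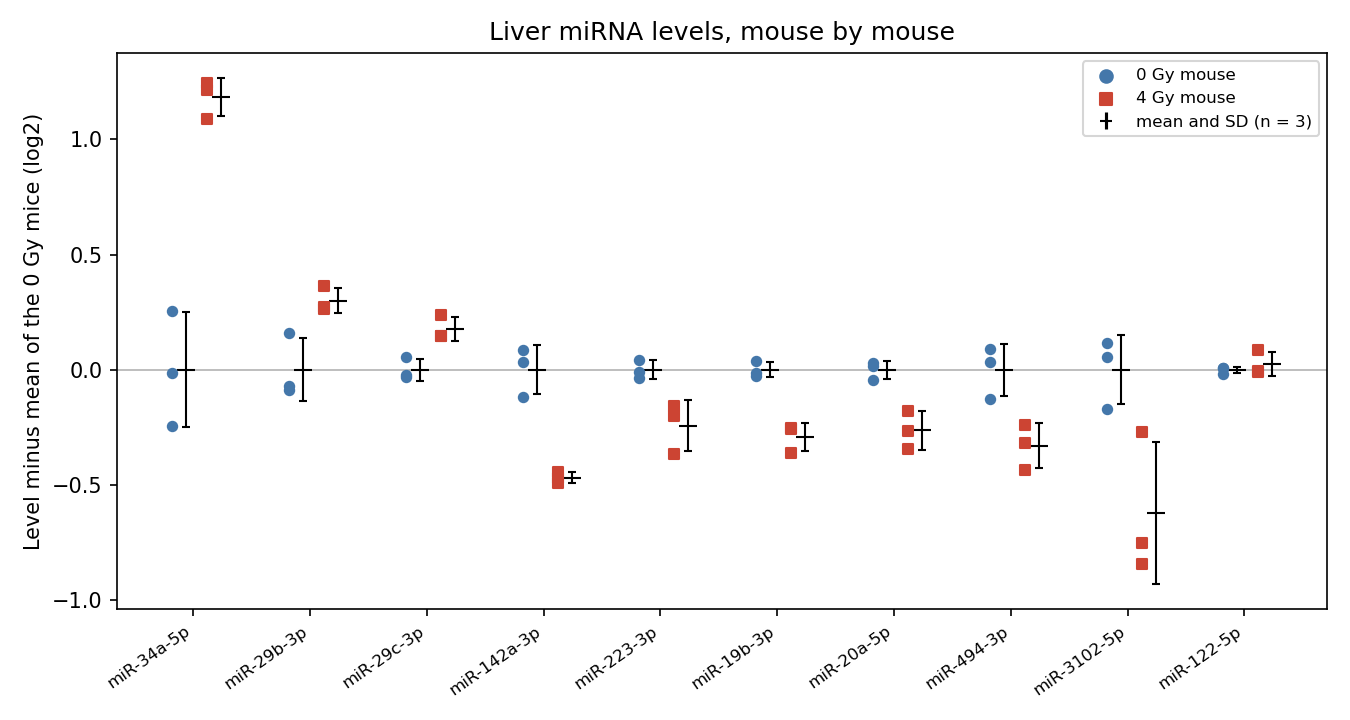
Levels in each mouse, as the difference in log2 from the mean of the 0 Gy mice, for 10 miRNAs (blue circles 0 Gy, red squares 4 Gy, 3 mice each; black marks give the mean and SD). The 4 Gy mice lay above all 0 Gy mice for miR-34a-5p, miR-29b-3p and miR-29c-3p, below them for the next 6, and among them for miR-122-5p.

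Beyond these 2 miRNAs, no other passed the adjusted test, and the values that follow are descriptions. Counting each miRNA by its brightest probe, the groups did not overlap for 24 of 223 miRNAs (10.8%), with 9 higher at 4 Gy (4.04%) and 15 lower (6.73%). An unadjusted p below 0.05 was reached by 13 of 223 (5.83%), 4 higher (1.79%) and 9 lower (4.04%). Of 164 miRNAs with more than 1 tested probe, 122 had all their probes in the same direction. The 9 higher miRNAs were miR-34a-5p, miR-29c-3p, miR-29b-3p, miR-212-3p, let-7e-5p, miR-29c-5p, miR-7082-5p, miR-98-5p and miR-6368, and after miR-34a-5p their differences were 0.11 to 0.30. The 12 lower miRNAs of smallest p were miR-142a-3p, miR-19b-3p, miR-3102-5p, miR-494-3p, miR-20a-5p, miR-19a-3p, miR-223-3p, miR-20b-5p, miR-135a-1-3p, miR-142a-5p, miR-709 and miR-211-3p. miR-135a-1-3p was not above background on any of these 6 arrays and gives no fold. miR-494-3p, from the large imprinted miRNA cluster of chromosome 12, read 8.28, 8.12 and 8.34 at 0 Gy and 8.01, 7.81 and 7.93 at 4 Gy. Its difference was -0.33, and with slide as a term it was -0.11 (adjusted p 0.789). The largest higher value after miR-34a-5p belonged to miR-21a-3p, singled out after its values were seen. It was not above background on any 0 Gy array and on 2 of the 3 at 4 Gy, which makes it at least 1.14-fold higher on this probe, with an adjusted p of 0.607. Its second probe gives no fold, and the groups overlapped on both probes.

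The leukocyte miRNAs were chosen as a list of 8, of which 6 were tested. Of these, the study itself names miR-142a-3p, miR-142a-5p, miR-342-3p and miR-223-3p as lower with dose in these arrays. The list is thus not independent of these data, and its counts are descriptions. All 6 were lower at 4 Gy, as were 116 of all 223 miRNAs, with a median of -0.20 against -0.0046 over all 223. For 3 of the 6 the groups did not overlap, against 15 of 223 lower without overlap (6.73%). An adjusted p below 0.05 was reached by 1 of the 6 (miR-142a-3p) and by 2 of 223. The direction depended on the scaling, and 1 of the 6 was above 0 under 75th percentile scaling of normexp values and 4 of the 6 under the processed signal scaled over all probes, where the median of all differences was itself 0.14 and 0.44. miR-223-3p, the miRNA of granulocytes and monocytes, read 8.99, 8.91 and 8.94 at 0 Gy and 8.75, 8.79 and 8.58 at 4 Gy, a difference of -0.24 with an adjusted p of 0.622. miR-142a-5p, from the same hairpin as miR-142a-3p, had a difference of -0.29 with an adjusted p of 0.99, or -0.63 (adjusted p 0.282) with slide as a term. miR-146a-5p and miR-342-3p, regulators in lymphoid and myeloid cells, had differences of -0.11 and -0.16, and their groups overlapped. miR-150-5p and miR-155-5p, both of lymphocytes, were not above background on any liver array. The summed level of the 6 was 10.70 to 10.82 in log2 at 0 Gy and 10.40 to 10.53 at 4 Gy. In bulk tissue, fewer cells of a type and less RNA per cell cannot be told apart.

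The miRNAs of the miR-17 cluster and its paralogues, which promote proliferation in many cell types, showed the same direction. Of 12 listed, 9 were tested, and miR-17-5p itself was on the array but not above background on any liver array. All 9 were lower at 4 Gy, as were 116 of all 223 miRNAs, with a median of -0.10. For 5 of the 9 the groups did not overlap, against 15 of 223 lower without overlap (6.73%). None passed the adjusted test. Under the same 2 scalings 4 of the 9 and 9 of the 9 were above 0, and 1 of the 9 was with slide as a term, with the mean over the probes of a miRNA, and without mouse 21 or mouse 24. miR-19b-3p read 11.67, 11.72 and 11.66 at 0 Gy and 11.43, 11.43 and 11.32 at 4 Gy, a difference of -0.29 ± 0.09 (SE) with an adjusted p of 0.299. With slide as a term the differences of miR-20a-5p, miR-19a-3p and miR-20b-5p moved from -0.26, -0.20 and -0.19 to -0.40, -0.32 and -0.29. Their adjusted p-values were 0.219, 0.226 and 0.219. The median of all tested probes moved as well, from 0.0073 to -0.13, so much of this shift was shared by the tested probes. miR-20a-5p read 10.12, 10.10 and 10.04 against 9.74, 9.91 and 9.82. miR-19a-3p, whose sequence is nearly that of miR-19b-3p, so that the arrays may not separate them fully, read 8.64, 8.65 and 8.66 against 8.52, 8.52 and 8.33. Each of these had every 4 Gy mouse below every 0 Gy mouse. miR-20b-5p, from chromosome X, did so too, at 9.04, 9.05 and 9.05 against 8.86, 8.92 and 8.80. miR-93-5p and miR-106b-5p, which carry the seed of miR-20a-5p, had differences of -0.09 and -0.06, and their groups overlapped. The summed level of the 9 lay between 13.01 and 13.02 at 0 Gy and between 12.77 and 12.86 at 4 Gy.

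The miR-29 family, which restrains collagens and other matrix genes, lay the other way. miR-29b-3p read 11.92, 11.68 and 11.69 at 0 Gy and 12.03, 12.13 and 12.04 at 4 Gy, a difference of 0.30 ± 0.12 (SE) with an adjusted p of 0.607. miR-29c-3p read 11.68, 11.60 and 11.59 against 11.77, 11.87 and 11.77, a difference of 0.18. In both, all 4 Gy mice lay above all 0 Gy mice, as they did for 4.04% of all miRNAs. miR-29a-3p, with the same seed, had a difference of 0.04 with overlapping groups. The family median was 0.18, and none of the 3 passed the adjusted test. With slide as a term the differences were 0.014 for miR-29b-3p (adjusted p 0.974), 0.096 for miR-29c-3p (adjusted p 0.676) and -0.18 for miR-29a-3p, and with slide as a random block they were 0.12, 0.13 and -0.11. miR-29a-3p was also below 0 without mouse 11. miR-29c-3p passed under 1 alternative, the processed signal scaled over detected probes, at 0.26 with an adjusted p of 0.0494.

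Without a slide term, the remaining lists stayed close to the median of all tested miRNAs. The 5 hepatocyte miRNAs had differences between -0.07 and 0.04, with miR-122-5p at 0.02 and miR-192-5p at 0.04, and their groups overlapped. The 4 erythroid miRNAs tested lay between -0.07 and 0.02. With slide as a term miR-451a, miR-144-3p, miR-486a-5p and miR-144-5p were at -0.55, -0.54, -0.66 and -0.44. Their adjusted p-values were 0.219 to 0.362, and the median of all tested probes in that fit was -0.13. With slide as a random block these 4 were at -0.48 to -0.31, against a median of -0.11. miR-451a, the most abundant miRNA of red cells, read 12.08, 11.86 and 11.93 at 0 Gy and 11.81, 11.75 and 12.11 at 4 Gy. The 9 members of the let-7 family had a median of 0.04. let-7e-5p and miR-98-5p were above their controls in all mice, as were 4.04% of all miRNAs, by 0.17 and 0.11. The 5 members of the miR-15 and miR-16 family had a median of 0.00 (0.0016) and overlapping groups throughout. miRNAs with roles in lipid metabolism (6 tested) had a median of -0.06, and miR-33-5p, which lies within the gene of the sterol regulator Srebf2, had a difference of 0.08. Of the 2 endothelial miRNAs, miR-126a-3p differed by -0.08 and miR-126a-5p by 0.06 with overlapping groups. Every 4 Gy mouse lay below every 0 Gy mouse for miR-126a-3p, as for 6.73% of all miRNAs. The 5 mesenchymal miRNAs tested lay between -0.14 and 0.06, with miR-199a-3p at 0.01. Of the 12 miRNAs listed as induced by p53, 5 were tested. Beside miR-34a-5p these were miR-192-5p, miR-194-5p, miR-107-3p and miR-143-3p, whose differences lay between -0.04 and 0.06.

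**Figure D3:**
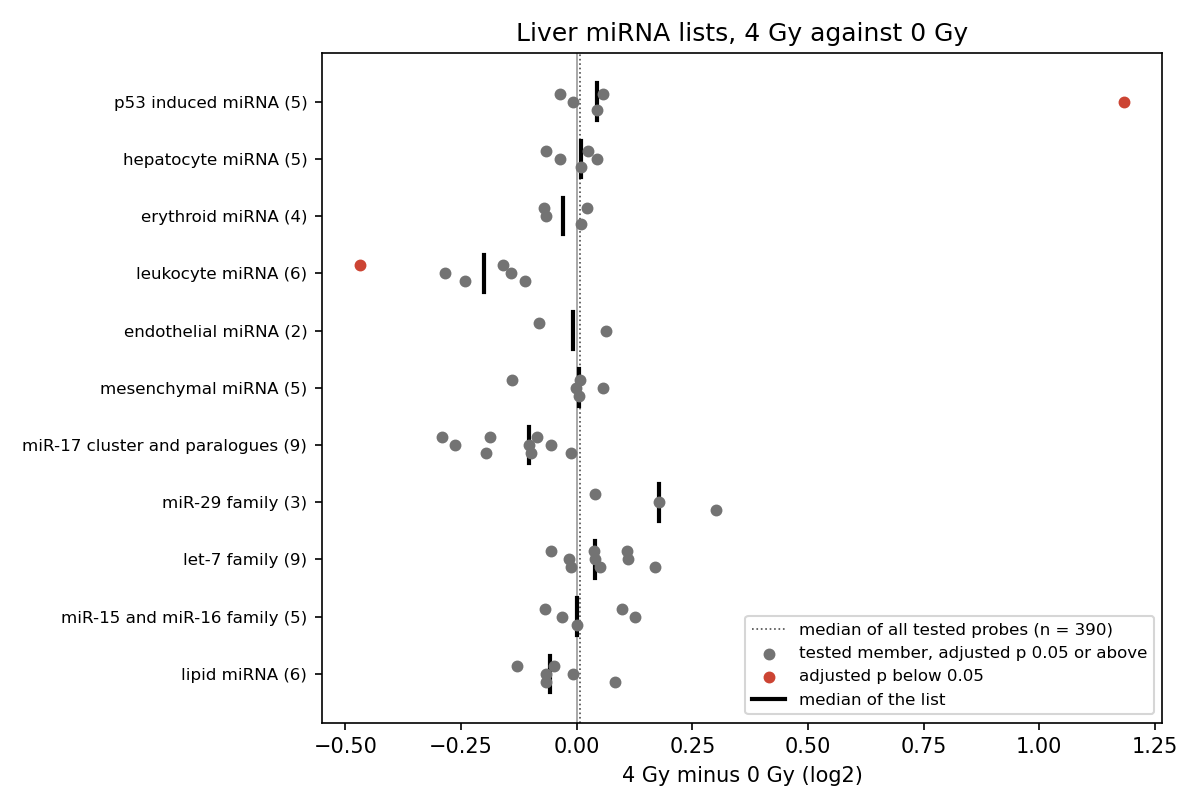
Differences of 4 Gy minus 0 Gy (log2) for the tested members of 11 miRNA lists, with the number tested in parentheses. Of all 223 tested miRNAs, 116 were below 0. Points are miRNAs given by their brightest probe, black bars are list medians, red points have an adjusted p below 0.05, and all 6 leukocyte and all 9 miR-17 cluster members lie left of 0, whereas 4 of the 6 and all 9 lay right of 0 under the processed signal scaled over all probes and 1 and 4 under 75th percentile scaling of normexp values.

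Against the other doses, miR-34a-5p at 4 Gy lay within means that were ordered by dose. The means of its brighter probe were 8.93 at 0 Gy, 9.47 at 1 Gy, 9.70 at 2 Gy, 10.11 at 4 Gy, 10.25 at 8 Gy and 10.50 at 12 Gy, with SDs of 0.08 to 0.32 (n = 3 each). The step from 4 to 8 Gy was 0.13 with an adjusted p of 0.991, and the mice of these doses overlapped. The step from 4 to 12 Gy was 0.39 with an adjusted p of 0.134, which missed the threshold although the 12 Gy mice (10.35 to 10.76) all lay above the 4 Gy mice. miR-142a-3p was lower at 8 and 12 Gy than at 4 Gy. Its mean was 8.82 at 4 Gy and 8.40 at both 8 and 12 Gy, which was a drop of 0.42 for each dose (decreased by 0.42, adjusted p 0.0225 and 0.0182). Over all 390 probes the median step was 0.03 from 4 to 8 Gy. From 4 to 12 Gy it was -0.20, so part of the drop at 12 Gy was shared by the tested probes. With slide as a term that median was -0.016.

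miR-3102-5p and miR-5126 did not follow that order. miR-3102-5p read 7.72, 7.78 and 7.50 at 0 Gy, 6.83, 6.92 and 7.40 at 4 Gy, 7.91, 8.44 and 8.68 at 8 Gy, and 8.45, 8.80 and 8.69 at 12 Gy. All 4 Gy mice lay below all 0 Gy mice, and all mice of the higher doses lay above them. The difference at 4 Gy was -0.62 ± 0.21 (SE) with an adjusted p of 0.596. The step up was 1.30 from 4 to 8 Gy (adjusted p 0.00607) and 1.60 from 4 to 12 Gy (adjusted p 0.000514). miR-5126 rose likewise by 1.21 to 8 Gy and by 1.53 to 12 Gy. miR-3960 and miR-211-3p were called between 4 and 12 Gy (adjusted p 0.00156 and 0.00137), and miR-3960 rose by 1.23. In all, 4 of 390 probes were called between 4 and 8 Gy (1.03%) and 7 between 4 and 12 Gy (1.79%), each of them higher at the higher dose, and they belong to these 4 miRNAs. Between 4 and 8 Gy no probe was called without mouse 4 or without mouse 25, 2 without mouse 15, and 7 without mouse 24 or without mouse 5. On the slide that held the 4 Gy arrays, the single 8 Gy array read 8.68 and the single 12 Gy array 8.45 for miR-3102-5p. Of the 39 miRNAs with a G and C content of 60% or more, the median difference was -0.04 at 4 Gy against 0 Gy. It was 0.13 at 8 Gy and -0.09 at 12 Gy, each against 4 Gy, and 3 of them exceeded 1 at 12 Gy. In the classes of lower content the medians against 4 Gy were -0.01 to 0.02 at 8 Gy and -0.26 to -0.14 at 12 Gy. None of their miRNAs exceeded 1.

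**Figure D4:**
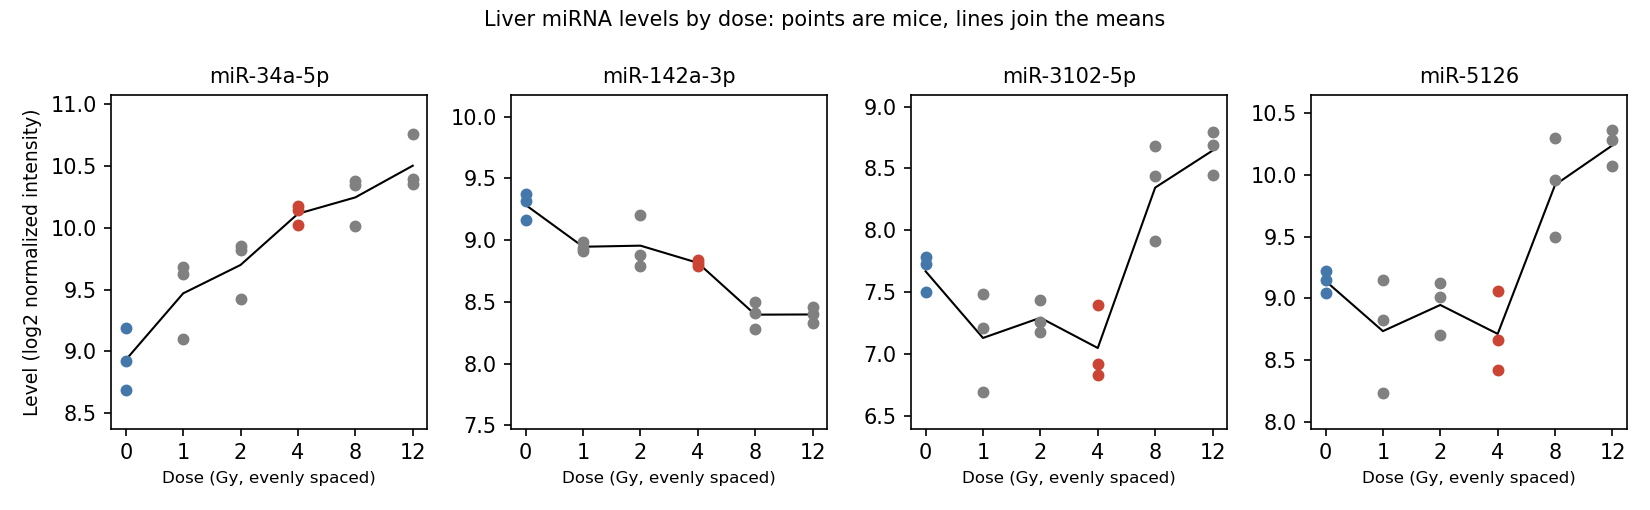
Levels (log2 normalized intensity) of miR-34a-5p, miR-142a-3p, miR-3102-5p and miR-5126 in each of the 18 livers, by dose in Gy (evenly spaced; blue 0 Gy, red 4 Gy, grey the others), with lines through the means of 3 mice. Each panel spans the same range, miR-34a-5p climbs from 8.93 to 10.50, and miR-3102-5p turns upward only above 4 Gy.

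Lung arrays, normalized together with those of liver, gave a second organ at the same doses. For miR-34a-5p the liver levels on this scale were 10.26, 10.49 and 10.81 at 0 Gy and 11.55, 11.63 and 11.66 at 4 Gy, and the lung levels were 10.59, 10.62 and 10.47 against 11.59, 11.33 and 11.32. The rise was 1.09 in liver and 0.86 in lung, and the difference of 0.23 ± 0.20 (SE, adjusted p 0.877) did not exceed the spread, with the second probe at 0.44 ± 0.22. miR-142a-3p differed between the organs. In liver it read 11.04, 10.78 and 10.98 at 0 Gy and 10.38, 10.41 and 10.36 at 4 Gy, and in lung 12.13, 12.48 and 12.60 against 10.54, 10.84 and 10.79. The fall was larger in lung (decreased by 1.68) than in liver (decreased by 0.55), and the difference of 1.13 ± 0.17 had an adjusted p of 0.000166. It was the 1 probe called of 780 tested (0.128%), and 4 probes had an adjusted p below 0.05 (0.513%). With 75th percentile scaling, which moved the median of all differences to -0.76, this difference was -0.02. The lung arrays lay on slide 4 at 0 Gy and on slides 2 and 5 at 4 Gy, none of which held a liver array of these doses, so slide and dose cannot be told apart within these 12 arrays.

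The mRNA arrays of the livers with the same numbers gave the p53 response and the blood cell genes. The labels do not say whether a number is the same animal on both kinds of array. The study names Cdkn1a, Phlda3, Eda2r, Ms4a1, Hba-a1 and Hbb-bt as changed in these arrays. The lists that hold them are thus not independent of these data. The 0 Gy mRNA arrays shared a slide and the 4 Gy mRNA arrays shared another. Only the 2 Gy group had arrays on both of these slides, so slide and dose could be separated only through it. Here 362 of 38362 tested probes were called (0.944%), with 0.321% higher and 0.623% lower. Of 22 listed p53 target genes, 6 were called, all higher, and 11 had an adjusted p below 0.05 (3.31% of all probes), with a median of 0.80 against 0.00697 over all probes. Cdkn1a, the cell cycle inhibitor p21, read 5.93, 6.75 and 6.70 at 0 Gy and 10.67, 10.62 and 10.68 at 4 Gy, a rise of 4.20 with an adjusted p of 8.35e-07. Phlda3, which restrains Akt signalling, rose by 2.47. Eda2r, a death receptor of the TNF family, was not above background at 0 Gy and was at least 5.36-fold higher at 4 Gy. Ccng1 and Trp53inp1 rose by 1.67 and 1.65, and Tnfrsf10b by 1.43. Bbc3 and Fas, also p53 targets, had differences of -0.74 and 0.07 and did not pass.

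Of 20 genes listed as targets of miR-34a-5p, 19 were tested and none was called or had an adjusted p below 0.05. Over all probes the shares were 0.944% and 3.31%, so none in a list of 19 is near those shares. Their median was 0.20, and 6 of the 19 had values below 0. With slide as a term, 1 of the 19 was called lower, in a fit whose share over all probes is not given here. Sirt1, the deacetylase that acts on p53, read 10.14, 10.02 and 9.91 at 0 Gy and 10.37, 10.51 and 10.54 at 4 Gy, which was higher by 0.45 with an adjusted p of 0.093. Myc differed by 0.69 and Bcl2 by 0.09. Arrays of mRNA levels do not measure translation, through which a miRNA can also act.

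Among the blood cell genes, those of B cells were mostly lower at 4 Gy, while the neutrophil genes went both ways. Of 13 B cell genes tested, 7 were called lower (0.623% of all probes were), with a median of -1.05. The summed level was 10.64 to 10.95 in log2 at 0 Gy and 9.44 to 9.59 at 4 Gy. Cd79b, part of the B cell receptor, read 8.35, 9.13 and 9.19 against 6.54, 6.74 and 6.38. Ms4a1 (CD20) and Fcmr were not above background at 4 Gy and were at least 5.13-fold and 6.24-fold lower. Of 12 T cell genes, 1 was called lower (0.623% of all probes were), Cd8b1, which decreased by 1.98 in log2. The T cell median was -0.39, and the summed level was 13.25 to 13.74 against 13.09 to 13.23. None of 13 neutrophil genes was called (0.944% of all probes were), their median was 0.17, and their summed level was 14.30 to 14.43 against 14.77 to 14.88. The brightest in that sum were Lcn2 and Csf3r, with means of 13.74 and 13.58 at 4 Gy. Lcn2 and S100a8 were higher by 0.89 and 1.21 (adjusted p 0.086 and 0.057). Camp, Ltf, Ngp, Mmp9 and Ly6g had values below 0, from -1.08 to -0.10. All B cell and T cell genes tested were above background on at least 1 of these arrays, and the neutrophil genes Ngp, Mmp8 and Cd177 were on none. The part of these cells in the leukocyte miRNA values was not tested. Among the 11 erythroid genes 4 were called lower (0.623% of all probes were). Hbb-bt decreased by 7.21 and Hba-a1 decreased by 5.35 in log2, with the caution that globin paralogues can cross-hybridize, and Alas2 and Slc4a1 were the other two. The median of the 11 was 0.29, and 6 of the 7 that were not called had values above 0, with Ermap at 0.36, Klf1 at 0.30 and Hemgn at 0.29. Epb42, Rhag and Rhd, among those 6, were not above background on any of these arrays. The summed level of the 11 was 16.70 to 16.86 at 0 Gy and 15.01 to 15.24 at 4 Gy, and that of the erythroid miRNAs was 11.95 to 12.19 against 11.87 to 12.20. Neither sum takes slide into account, and with slide as a term the erythroid miRNAs had differences from -0.66 to -0.44. With slide as a term, 3 p53 targets, 2 erythroid genes and 1 B cell gene were called. The share of all probes called in that fit is not given here, so these counts have no background beside them.

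Genes that host miRNAs are the last readout. None of 14 was called (0.944% of all probes were), 3 had an adjusted p below 0.05 (3.31% of all probes), and their median was 0.06. Pank1 and Pank3, which hold miR-107 and miR-103 in their introns and encode pantothenate kinases, were higher by 0.62 and 0.54 (adjusted p 0.019 and 0.049), with their miRNAs at -0.01 and -0.07. Mest, the host of miR-335, was lower (decreased by 0.89, adjusted p 0.033). Mcm7, the replication factor gene that holds miR-93, miR-106b and miR-25, read 10.73, 10.96 and 10.83 at 0 Gy and 10.47, 10.39 and 10.31 at 4 Gy, a difference of -0.45 with an adjusted p of 0.055. Evl, the host of miR-342, differed by -0.53 and its miRNA by -0.16. Egfl7, the endothelial host of miR-126, differed by 0.01. The remaining hosts in the list were Copz1, Ctdspl, Trpm1, Srebf2, Smc4, Ppargc1b, Ctdsp1 and Wwp2, whose differences lay between -0.38 and 0.40.

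**Figure D5:**
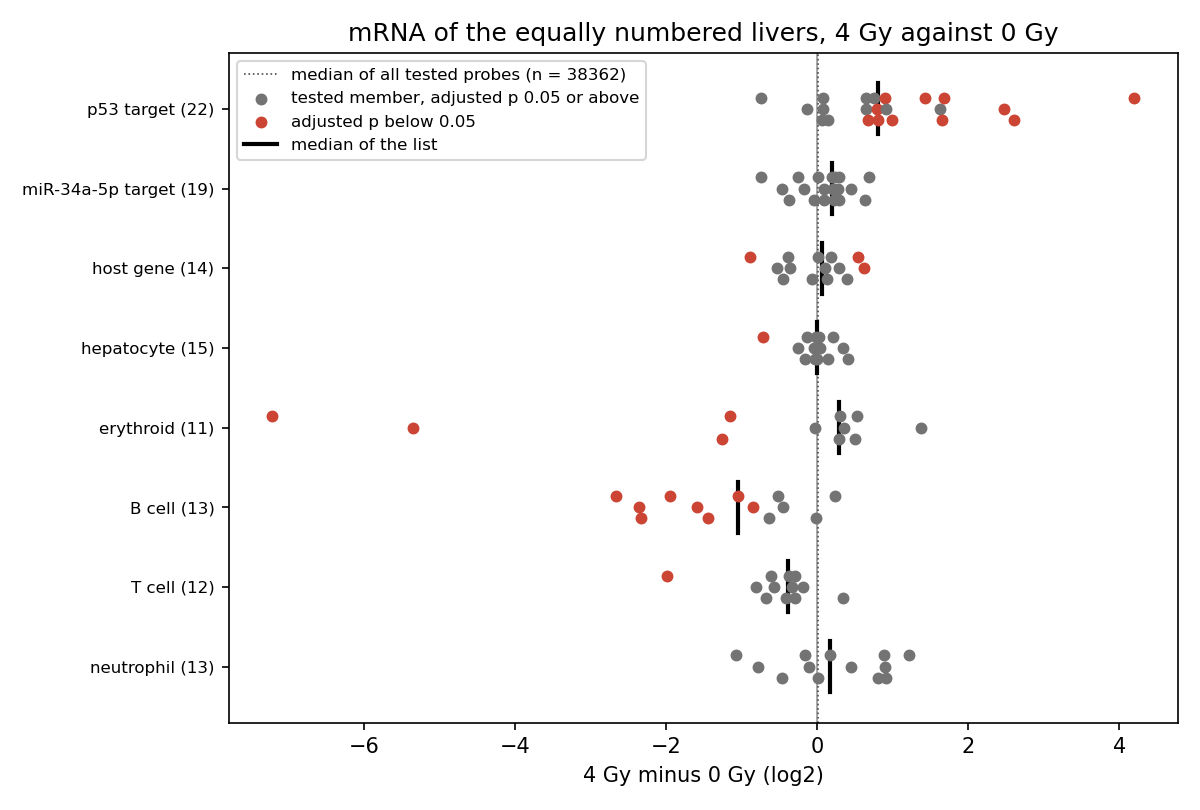
Differences of 4 Gy minus 0 Gy (log2) for genes of 8 mRNA lists in the livers with the same numbers, with the number tested in parentheses, black bars for list medians and red points for an adjusted p below 0.05. p53 targets reach 4.20, the globin genes fall to -7.21, B cell genes lie mostly left of 0, and the 19 miR-34a-5p targets centre near 0.20.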

How the data were processed

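The authors hybridized liver RNA to 1-colour Agilent mouse miRNA arrays (miRBase 21 design) and mRNA arrays, and the scanner files they deposited hold spot intensity values extracted with Agilent Feature Extraction 11.5.1.1. The deposited series values are intensity values with a floor of 0.01 that track each array's processed signal up to a factor per array, and were used as an alternative. From the files, median spot signals were background-corrected with normexp (limma 3.58.1 in R 4.3.3, offset 0), control and outlier spots were left out, the 18 liver arrays were quantile-normalized, and log2 values were averaged per probe. limma models with 6 dose groups gave 4 Gy minus 0 Gy, 8 Gy minus 4 Gy and 12 Gy minus 4 Gy, with Benjamini-Hochberg adjustment over all tested probes. Liver minus lung was an interaction over 36 arrays in 12 groups. Precision is limited by 3 arrays per group. The mRNA probes were named through RefSeq accessions (61.1% of 56605 matched), with 1 probe per gene, the brightest. The steps were tested on simulated data.

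Named are the called miRNAs, the 12 of lowest p in each direction whose groups did not overlap, the brightest members of each list, miRNAs the study names, and those called between other groups. The members and lists were chosen with earlier results of these data known. Alternatives covered background correction, scaling, filtering, averaging, variance model, slide and left-out mice. The lung mRNA arrays were not used here.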

Additional observations from a re-analysis of the deposited data

Results flagged for a closer look

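The difference between the responses of liver and lung to 4 Gy, tested as an interaction in the limma fit of all 36 arrays, passed an adjusted p of 0.05 for 4 probes. For miR-142a-3p it was 1.13 on probe A_54_P2308 (adjusted p 0.000166) and 0.95 on probe A_54_P3691 (adjusted p 0.00364), with a fall in both organs that was larger in lung. For miR-150-5p, a lymphocyte miRNA, it was 0.73 (adjusted p 0.000166), where the lung value was -0.64 and liver was not above background in either group, so that the liver side carries no measured level, and its second probe did not pass (0.50, adjusted p 0.561). For miR-34a-3p it was -0.63 (adjusted p 0.0464), where 0 of 3 lung arrays at 0 Gy and 3 of 3 at 4 Gy were above background and no liver array of either group was. Groups of 3 mice were too small to test for outlying mice.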

How the results depend on the processing

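The count of 2 probes called at 4 Gy against 0 Gy was kept under offset 50, both filters, the 6 arrays alone, joint normalization with lung, the trend and robust variance model, slide as a term or random block, the deposited series values and the removal of each mouse (2 to 2). It was 1 where miR-34a-5p counts as 1 unit (mean over its probes, or total gene signal), and 0 under 75th percentile scaling of normexp values and 0 under the processed signal scaled over all probes. Both of these scale on probes at background and moved the median of all differences to 0.14 and 0.44. The count at an adjusted p below 0.05 was 3, 2 to 3 without single mice, 5 with the processed signal scaled over detected probes (miR-29c-3p entered), and 0 and 0 under those 2 scalings. Among the 58 named miRNAs, the sign changed for 28 under the processed signal scaled over all probes, 19 under 75th percentile scaling of normexp values, 16 with slide as a term, 14 with it as a random block, 12 with the processed signal scaled over detected probes, 10 in the deposited series values, 9 of 51 with total gene signal, 4 with the mean over probes, 1 with offset 50 and 3 to 11 without single mice (11 without mouse 14). Those whose groups did not overlap were, under the first of these, miR-19b-3p (0.28), miR-494-3p (0.11), miR-20a-5p (0.26), miR-19a-3p (0.33), miR-223-3p (0.21), miR-20b-5p (0.25), miR-709 (0.35), miR-211-3p (0.16), miR-126a-3p (0.46), miR-92a-3p (0.40) and miR-27a-3p (0.48). Under 75th percentile scaling of normexp values they were miR-709 (0.015), miR-126a-3p (0.14), miR-92a-3p (0.080) and miR-27a-3p (0.15), and with slide as a term or random block miR-29c-5p (-0.042 and -0.0024). Slide as a term or random block moved the median to -0.13 and -0.11. Between 4 and 8 Gy the count of 4 became 2 under percentile scaling, 10 with slide as a term, 2 per miRNA, and 0 to 7 without single mice. Between 4 and 12 Gy the count of 7 became 0, 4 and 4 under the same settings, and 7 to 10 without single mice. For liver minus lung the count of 1 became 110, all lower, under percentile scaling, with the median moved to -0.76, and 1 to 4 without single mice (4 without mouse 24, 2 without mouse 1). With the mouse number as a replicate block it was 1 of 780, the same probe (adjusted p 0.00971). Samples with the same number did not deviate together (correlations between -0.141 and 0.262 over 220 probes), so the numbers were not taken as pairs. The 18 listed mRNA genes called became 7 with slide as a term, and 16 to 19 without single mice. Leaving out the 2 Gy arrays of mice 13 and 23 was chosen after seeing the data and kept the calls at 2, 4 and 7. The causes were not tested.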
